A study of Mus musculus with 4 samples.

Results

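The 187 genes described here are the long noncoding RNA (lncRNA) genes that late 2-cell (2C) mouse embryos expressed at a substantial level. They were chosen by biotype and level, as the genes with the biotype lncRNA and a mean of at least 10 CPM (counts scaled to a library total of 1000000) over the 4 libraries, and were 187 of 2353 lncRNA genes and of 26022 genes in all. Both groups of libraries came from embryos of ICR mice, an outbred strain, whose dams were 7 to 8 weeks old. Zygotes were cultured for 16 h in KSOM medium, an embryo culture medium, to the late 2C stage. The medium of the Mdivi-1 group held Mdivi-1 at 200 μM, a compound that inhibits DRP1, the GTPase of mitochondrial fission, and that of the control group did not. Each group had 2 libraries, with 8 to 10 embryos pooled for a group, and RNA was amplified by Smart-Seq2, which copies polyadenylated RNA and keeps neither strand nor molecular tags. Whether both libraries of a group were made from separate litters is not stated, so every p-value reflects only the spread among these 4 samples, part or all of which may be technical. In pooled embryos, fewer embryos or cells with a transcript and less transcript per cell cannot be told apart.

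An lncRNA is transcribed and usually spliced and polyadenylated like an mRNA but is not known to encode a protein. Around the 2C stage the mouse embryo degrades RNA stored in the oocyte and starts large-scale transcription of its own genome, and many lncRNA genes are transcribed then. Some lncRNA genes are hosts of small nucleolar RNAs (snoRNAs), which lie in their introns and guide modification of ribosomal RNA, some run antisense to a protein-coding gene or start back to back with one, and others lie between genes (intergenic lncRNAs, or lincRNAs).

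The libraries held 17712075 and 18500928 counts (Mdivi-1 replicates 1 and 2) and 20077326 and 18279626 counts (control replicates 1 and 2). Markers of the 2C embryo (*Zscan4c*, *Zscan4d*, *Zfp352*, *Tdpoz4* and *Obox3*) summed to 1450 and 2069 CPM in Mdivi-1 libraries, against 732 and 947 CPM in controls, with overlapping groups for *Obox3*. Those of the oocyte (*Gdf9*, *Bmp15*, *Zp3*, *Nlrp5* and *Mos*) summed to 987 and 1225 CPM with Mdivi-1 against 491 and 624 CPM in controls, a difference carried mainly by *Bmp15* (662 and 975 CPM with Mdivi-1 against 184 and 273 CPM in controls). *Zp3* went the other way, with 149 and 99.2 CPM with Mdivi-1 against 198 and 269.5 CPM in controls, *Nlrp5* and *Mos* overlapped between the groups, and *Gdf9* had 118 and 88.5 CPM with Mdivi-1 against 47.6 and 54.8 CPM in controls. Of 8 markers of cumulus and granulosa cells, which surround the oocyte, 4 were at 0 in every library, among them *Amh* and *Has2*, and the list summed to 14.8 and 18.2 CPM in Mdivi-1 libraries and 7.78 and 16.3 CPM in controls. Blood markers summed to 56.1 and 48.1 CPM against 60.5 and 58.5 CPM, with *Hbb-bs* at 0, and sperm markers to 6.07 and 2.61 CPM against 1.91 and 0 CPM. The part of these differences in the results below was not tested.

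Since level chose the genes, their levels are a description. By raw CPM, the members ranged up to 2045 CPM with a median of 23.03 CPM. There were 23 at 100 CPM or more, 81 from 20 to 100 CPM and 83 below 20 CPM. The lowest inside the limit were *Wbscr25* (10.17 CPM), *A430035B10Rik* (10.17 CPM) and *1700048O20Rik* (10.02 CPM), and the highest outside it *Gm12709* (9.9996 CPM), *Gm16534* (9.98 CPM) and *Snhg14* (9.93 CPM). In GENCODE M21, on GRCm38, 86 members are lincRNAs, 51 antisense, 37 processed transcripts, 11 bidirectional promoter lncRNAs and 2 protein-coding. Most were known only by systematic names, with 73 Rik and 65 Gm symbols. Their median exonic length was 2137 bases (quartiles 1110 and 3030), against 1682 bases for the other lncRNA genes with a count. Only 4 had a single exon, and 8 were on the X chromosome. In 12 members, at least 150 bases were at least 98% identical to a transcript of another locus, so that counts of uniquely mapped reads are uncertain for them.

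Together, the members took a larger share of the counts in Mdivi-1 embryos. They held 1.42% and 1.40% of the counts in Mdivi-1 libraries, against 0.954% and 1.13% in controls, a mean of 1.41 ± 0.0187% against 1.04 ± 0.125% (SD, n = 2 each). Both Mdivi-1 libraries lay above both controls. The difference was 0.366 percentage points, and its exact permutation p, two-sided, was 0.333, which is the smallest that 2 against 2 libraries can give. Without counts of the mitochondrial genome, which were 15.98% and 14.2% of Mdivi-1 libraries and 15.1% and 18.8% of controls, the difference was 0.401 points. Without the most abundant member it was 0.44 points, and over the 110 members whose span overlapped no protein-coding gene it was 0.287 points.

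Gene by gene, no member passed an adjusted p of 0.05 in edgeR's quasi-likelihood test, with 0.136 as the lowest value among members. Genes are named called from here on where the unadjusted p was under 0.05. In that sense, 37 of 187 members were higher with Mdivi-1 and 12 were lower (19.8% and 6.42%). Of all 14259 genes tested, 8.27% were called higher and 7.64% lower, and of 6892 protein-coding genes with at least 10 CPM 11.2% were called higher and 12.8% lower. The median log2 fold change of the members, Mdivi-1 over control, was 0.24, against 0.03 over all genes tested and -0.08 over those protein-coding genes. Without control replicate 1 the median was 0.139 for the members and 0.206 for all genes tested, so the members did not lie above all genes there. Both Mdivi-1 libraries lay above both controls in 72 members (38.5%, against 26.1% of all genes tested and 27.1% of those protein-coding genes) and below both in 40 (21.4%, against 23.9% and 31.2%). Of the members, 110 had a positive log2 fold change (58.8%, against 51.3% of all genes tested and 46.0% of those protein-coding genes). DESeq2, the tool the study used, placed 23 members higher and 4 lower at an adjusted p under 0.05 and more than 2-fold, where 3.19% of all genes tested were higher and 2.68% lower, and 4.25% and 4.74% of those protein-coding genes. The number of members called higher was 63 in place of 37 without control replicate 2, and the number called lower was 25 in place of 12 without control replicate 1. Under library totals in place of TMM scaling, which moved the median of all genes by 0.11, 50 were called higher and 6 lower.

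The split by gene class was uneven. Of 86 lincRNAs, 26 were called higher and 4 lower (30.2% and 4.65%), with a median log2 fold change of 0.74, and 61 of them had a positive one. Of all genes tested, 8.27% were called higher and 7.64% lower, and of protein-coding genes with at least 10 CPM 11.2% and 12.8%. Without control replicate 2 the lincRNAs called higher numbered 43, with 6 lower, and without control replicate 1 they were 22, with 9 lower. Of the 51 antisense genes 5 were called higher and 6 lower (9.8% and 11.8%, near the shares of those protein-coding genes), with a median of 0.01. That balance rested on both controls, with 11 called higher and 2 lower without control replicate 2, and 4 higher and 10 lower without control replicate 1. Of 37 processed transcripts 6 were called higher and 2 lower (16.2% and 5.41%, median 0.03). Of 11 bidirectional promoter lncRNAs 0 were called by edgeR and 0 by DESeq2 at its threshold, and 8 had a negative log2 fold change (median -0.21). The lincRNA median was positive under every alternative fit, from 0.34 in DESeq2 without control replicate 1 to 1.06 without control replicate 2. Over all genes tested, the medians in the same fits were 0.17 and 0.08. Of the 23 with at least 100 CPM, 10 were called higher and 1 lower (43.5% and 4.35%). The share called over all genes of that level was not worked out. The lncRNA genes under 10 CPM that were tested, 597 in number, had a median log2 fold change of 0.36, with 49 called higher and 10 lower. These were 8.21% and 1.68%, against 8.27% and 7.64% of all genes tested, so the share called higher was near that of all genes.

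**Figure D1:**
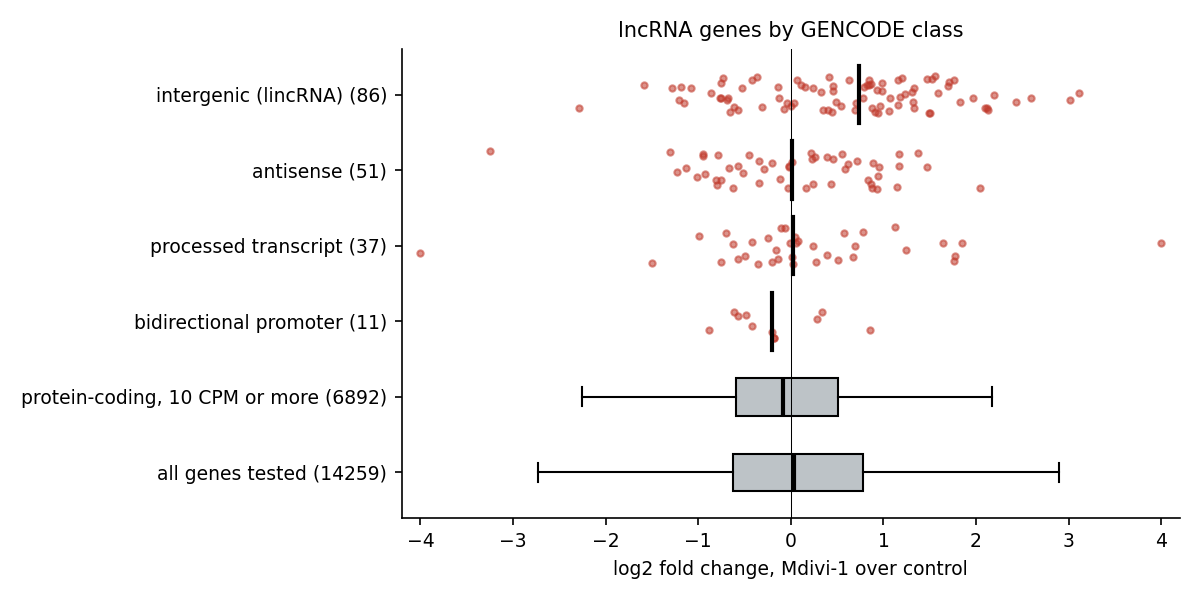
Log2 fold changes, Mdivi-1 over control, of members by GENCODE class (points, with vertical bars at the medians), above protein-coding genes with at least 10 CPM and all genes tested (boxes from quartile to quartile with whiskers to 1.5 times their width). Values past 4 in either direction are drawn at 4 or -4, and 2 members annotated as protein-coding are left out. The median of the 86 lincRNAs is at 0.74, and those of the antisense genes and processed transcripts are near 0.

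Among the 10 most abundant members, *B020004C17Rik*, a lincRNA on chromosome 14 (chr14:57015134-57018982, plus strand), had the highest mean level, also per kilobase of exonic sequence (876 CPM per kilobase, against 838 for the next, *Gm3143*). It had 1442 and 1767 CPM with Mdivi-1 and 2058 and 3092 CPM in controls (here and below TMM-normalized CPM, replicates 1 and 2). Both Mdivi-1 values lay below both controls, but the log2 fold change of -0.68 ± 0.36 (SE) was not called. The next 3 in order of mean CPM were called higher with Mdivi-1. *Gm3143*, a lincRNA on chromosome 3, had 1474 and 984 CPM with Mdivi-1 against 297 and 464 CPM in controls. *C86187*, a lincRNA on chromosome 7, had 927 and 1099 CPM against 384 and 336 CPM, and *2810408I11Rik*, on chromosome 1, had 662 and 595 CPM against 184 and 348 CPM. Their log2 fold changes were 1.69 ± 0.38, 1.49 ± 0.31 and 1.24 ± 0.38, with adjusted p of 0.153, 0.149 and 0.206 in edgeR and 0.000161, 7.46e-05 and 0.0172 in DESeq2. *Gm1965*, a lincRNA on chromosome 6, had 443 and 610 CPM with Mdivi-1 against 153 and 143 CPM (log2 fold change 1.83 ± 0.32, adjusted p 0.136 in edgeR and 4.52e-06 in DESeq2). In these 4 genes every Mdivi-1 library lay above every control. *2810408I11Rik* overlaps the protein-coding gene *Ccnyl1* on the opposite strand, and reads without strand cannot divide overlapping genes. *Ccnyl1* had 177 and 157 CPM with Mdivi-1 and 81.8 and 108 CPM in controls.

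Of the other 5 of the 10 most abundant, *2500002B13Rik* had 530 and 506 CPM with Mdivi-1 against 218 and 387 CPM, and *1700018B24Rik* 344 and 268 CPM against 144 and 234 CPM. Neither was called, though in both every Mdivi-1 library lay above every control. *Gt(ROSA)26Sor*, the transcript of the locus widely used for transgene insertion, had 206 and 240 CPM against 184 and 456 CPM, so the groups overlapped. *Snhg15* and *1600025M17Rik* were at lower levels with Mdivi-1 and are given with the snoRNA hosts and the genes called lower.

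The next members are among the 10 with the smallest p of those higher with Mdivi-1. *A730082K24Rik* (chr7:114948650-114983960, plus strand) had 192 and 209 CPM with Mdivi-1, against 25.3 and 41.3 CPM in controls. Its log2 fold change of 2.59 ± 0.35 had an adjusted p of 0.136 in edgeR and 1.02e-08 in DESeq2. *Gm20362* had 78.0 and 97.8 CPM against 12.6 and 20.01 CPM (2.43 ± 0.38 on the log2 scale), and *1600002D24Rik* 19.2 and 22.99 CPM against 1.64 and 3.61 CPM (3.01 ± 0.63). *Gm11827* had 148 and 163 CPM with Mdivi-1 against 45.3 and 46.4 CPM in controls, with replicates of a group close together. *Arhgap20os*, antisense to *Arhgap20*, had 276 and 269 CPM against 93.2 and 117 CPM (1.38 ± 0.29). The gene with the smallest p, *E230016K23Rik* (chr11:83582056-83623693, plus strand), was almost unread in controls: it had 455 and 298 counts with Mdivi-1 and 1 and 0 counts in controls. The depth-scaled ratio of the summed counts was 741, with an exact 95% interval of 132.6 to 29310 that covers counting error only, so that the size of this difference is poorly bounded. *E230016K23Rik*, *1600002D24Rik* and, among genes given below, *BC002059* and *Gm33301* reached the limit of 10 CPM only through their Mdivi-1 libraries. Their place among the members therefore depended on the group in which they were higher, and the members called higher include such genes.

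The genes called lower with Mdivi-1 were fewer. *1600025M17Rik*, a lincRNA on the X chromosome (chrX:56317608-56320664, plus strand), had 127 and 84.7 CPM with Mdivi-1 and 289 and 741 CPM in controls. Its log2 fold change was -2.28 ± 0.49 (adjusted p 0.151 in edgeR and 2.29e-05 in DESeq2), and its controls lay far apart. *1700034H15Rik*, antisense to the zinc exporter gene *Slc30a1*, had 1.93 and 8.55 CPM against 29.4 and 70.8 CPM. *2500004C02Rik* had 0.107 and 0.469 CPM with Mdivi-1 and 2.28 and 47.8 CPM in controls, so that a single control library carried most of its reads. Both *1700034H15Rik* and *2500004C02Rik* reached the limit of 10 CPM only through control libraries, so their place among the members depended on that group. *Gm20939* (20.99 and 26.9 CPM with Mdivi-1, 49.7 and 51.7 CPM in controls) and *EU599041* (58.6 and 72.9 CPM with Mdivi-1, 107 and 115 CPM in controls) had smaller differences with tight replicates. *1600020E01Rik*, *C920021L13Rik*, *Gm4926* and the antisense gene listed under the symbol *Trmt61b* were also called lower, with log2 fold changes from -1.28 to -0.93.

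**Figure D2:**
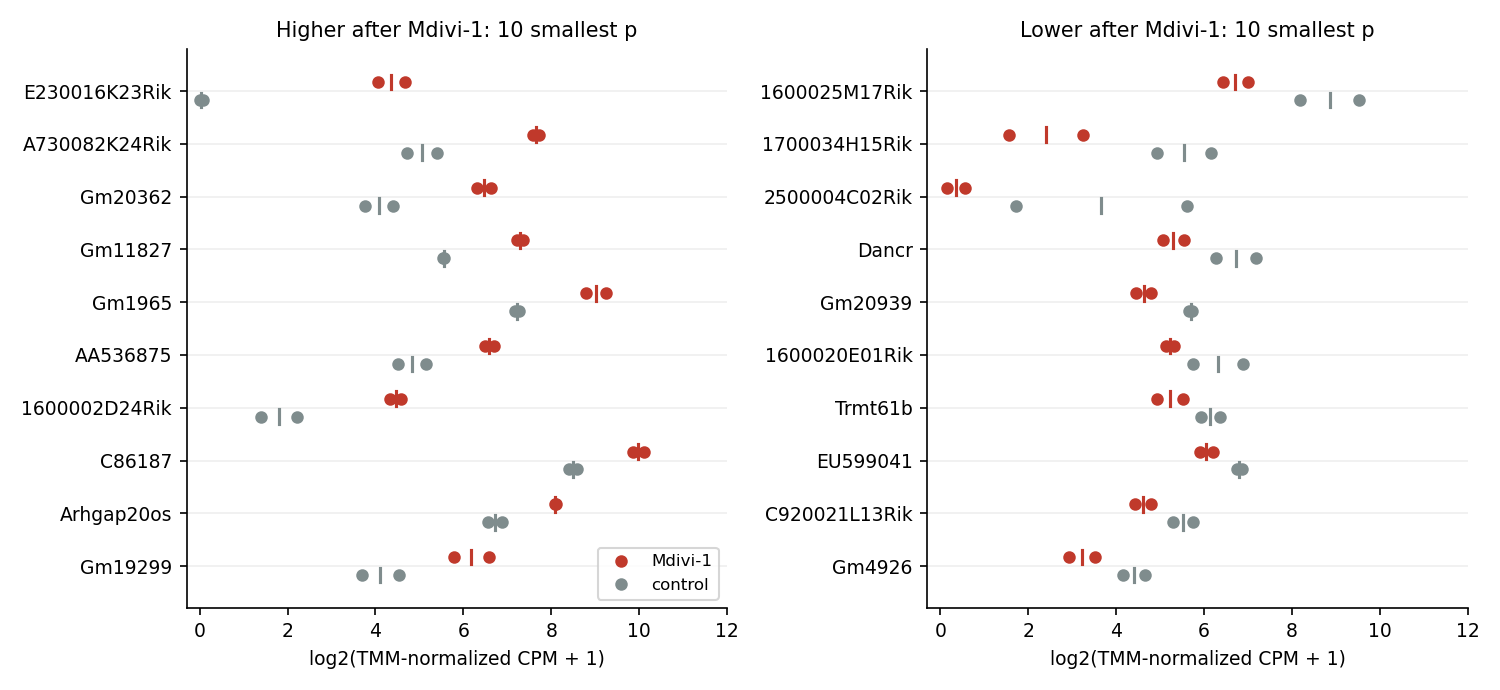
Level in each library, as log2 of TMM-normalized CPM + 1, of the 10 members with the smallest p in each direction among those whose groups did not overlap. Points are libraries, short vertical bars group means, Mdivi-1 in red above control in grey. *2500004C02Rik* shows its 2 control libraries far apart, at 2.28 and 47.8 CPM.

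Sequences before the annotated starts were read from RefSeq windows on GRCm38.p6, which run from 250 bases before to 50 bases after a start, and 148 of the 187 members had one among 32851 windows. Aligned with each other by BLAST on sequence alone, 18 of the 148 fell into 5 families. Windows of a family are linked by alignments of at least 100 bases in the same orientation, though not every pair in a family aligned. One family is that of *Gm3143*, *Gm16497*, *Gm17751*, *Gm19299* and the locus *AA536875 /// Gm33906*, which lie on 5 chromosomes. The family was singled out after its values were seen. All 5 members were called higher, with log2 fold changes from 0.96 to 2.13, and all 5 stayed positive under every alternative fit, the lowest value being 0.64 for *Gm17751* without Mdivi-1 replicate 2, where 4 of the 5 were called. *Gm16497* had 66.3 and 51.0 CPM with Mdivi-1 and 18.9 and 20.1 CPM in controls. *Gm17751* had 227 and 333 CPM with Mdivi-1 and 137 and 151 CPM in controls. *Gm19299* had 94.3 and 54.4 CPM with Mdivi-1 and 11.9 and 22.1 CPM in controls. *AA536875 /// Gm33906* had 102 and 89.1 CPM with Mdivi-1 and 21.8 and 34.5 CPM in controls. In none of the 5 did a Mdivi-1 library reach down to a control.

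The windows of 4 of them are given to show the shared stretch, 5′ to 3′. They are *Gm3143* (chr3:34716613-34716912, minus strand), *Gm16497* (chr12:14261284-14261583, plus strand), *Gm17751* (chr1:76488883-76489182, plus strand) and *Gm19299* (chr9:67133311-67133610, plus strand). Capitals in the last 3 mark bases equal to *Gm3143* in a pairwise alignment, and in *Gm3143* bases equal in all 3.
Gm3143: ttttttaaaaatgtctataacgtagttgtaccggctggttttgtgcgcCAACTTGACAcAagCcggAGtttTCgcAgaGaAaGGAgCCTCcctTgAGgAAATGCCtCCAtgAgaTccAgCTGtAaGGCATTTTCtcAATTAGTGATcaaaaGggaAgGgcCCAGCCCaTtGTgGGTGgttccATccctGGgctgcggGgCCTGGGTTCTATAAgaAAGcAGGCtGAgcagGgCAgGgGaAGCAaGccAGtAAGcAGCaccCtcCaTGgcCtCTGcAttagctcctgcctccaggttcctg
Gm16497: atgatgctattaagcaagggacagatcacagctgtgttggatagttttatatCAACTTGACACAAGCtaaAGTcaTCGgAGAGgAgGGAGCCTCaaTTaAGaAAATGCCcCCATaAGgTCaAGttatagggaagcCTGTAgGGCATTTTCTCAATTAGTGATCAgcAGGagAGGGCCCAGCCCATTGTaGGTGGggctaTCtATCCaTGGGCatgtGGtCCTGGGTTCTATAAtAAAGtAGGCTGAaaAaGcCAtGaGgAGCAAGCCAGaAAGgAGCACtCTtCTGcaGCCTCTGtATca
Gm17751: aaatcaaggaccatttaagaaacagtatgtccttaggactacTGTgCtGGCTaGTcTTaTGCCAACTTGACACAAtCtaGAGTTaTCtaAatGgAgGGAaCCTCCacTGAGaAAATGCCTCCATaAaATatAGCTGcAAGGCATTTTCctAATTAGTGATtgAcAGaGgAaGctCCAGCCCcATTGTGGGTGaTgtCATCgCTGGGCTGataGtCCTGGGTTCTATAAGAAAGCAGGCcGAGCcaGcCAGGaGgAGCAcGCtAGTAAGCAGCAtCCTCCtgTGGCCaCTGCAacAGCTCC
Gm19299: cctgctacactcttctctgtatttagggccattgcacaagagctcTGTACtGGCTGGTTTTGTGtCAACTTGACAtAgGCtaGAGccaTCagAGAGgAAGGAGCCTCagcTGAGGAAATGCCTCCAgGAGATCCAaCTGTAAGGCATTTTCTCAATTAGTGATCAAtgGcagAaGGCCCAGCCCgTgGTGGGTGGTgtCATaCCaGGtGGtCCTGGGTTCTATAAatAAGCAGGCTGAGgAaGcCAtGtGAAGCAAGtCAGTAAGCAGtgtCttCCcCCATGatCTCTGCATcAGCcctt
*Gm16497*, *Gm17751* and *Gm19299* aligned to *Gm3143* over 247, 260 and 258 bases at 74.5%, 77.3% and 78.7% identity. The capitals run through CCTGGGTTCTATAA in all 4, whose first base lies at -51 in *Gm3143*, -31 in *Gm16497*, -36 in *Gm17751* and -39 in *Gm19299*, counted from the annotated start. The letters, searched on both strands after this alignment was seen, were in 18 of the 32851 windows (0.0548%), of which these 4 were the members. Outside the members, 69 windows aligned to a window of this family, and 23 of their genes were tested. Of the 23, 20 had a positive log2 fold change (median 0.88), 6 were called higher and 1 lower. Of all genes tested, 51.3% had a positive log2 fold change, 8.27% were called higher and 7.64% lower. The windows of the 5 members had few CG pairs, with ratios of observed to expected pairs from 0.053 to 0.29. Of protein-coding genes with at least 10 CPM and such a ratio under 0.4, 22.0% were called higher and 9.38% lower.

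The other 4 families had 3, 2, 0 and 0 members called. The one of *BC002059*, *Gm5165* and *Gm6712*, neighbours on chromosome 17, with *Gm20939* and *EU599041*, held 1 member called higher and 2 called lower. Of 35 other genes with such a window, 4 were called higher and 2 lower, against 8.27% and 7.64% of all genes tested. *BC002059* had 13.0 and 28.4 CPM with Mdivi-1 and 7.46 and 2.03 CPM in controls. In the family of *A730082K24Rik*, *Gm33301* was also called higher, with 38.2 and 23.2 CPM with Mdivi-1 and 5.46 and 8.005 CPM in controls. Among members, the window of *Gm33301* aligned only to that of *Platr9*, over 107 bases at 75.7% identity, and not to that of *A730082K24Rik*. *2410021H03Rik*, whose window aligned to that of *A730082K24Rik* over 239 bases at 84.5% identity, had 44.0 and 44.2 CPM with Mdivi-1 and 46.8 and 42.6 CPM in controls. The same family held *Platr9*, at 9.61 and 9.85 CPM with Mdivi-1 and 5.51 and 20.7 CPM in controls. The remaining families were pairs, *2500002B13Rik* with *Gm16222* (182 bases at 93.4% identity, log2 fold changes 0.78 and 0.55) and *4921528I07Rik* with *4930579C12Rik* (300 bases at 94.7% identity, log2 fold changes 0.70 and -1.21), and none of these 4 genes was called. Of 7 other tested genes with a window like that of *2500002B13Rik*, 6 had a positive log2 fold change and 1 was called higher. The shares over all genes tested were 51.3% and 8.27%.

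Windows of 4 further members with large differences, all outside the family of *Gm3143*, are given as examples. *C86187* (chr7:46975862-46976161, minus strand) and *Arhgap20os* (chr9:51875836-51876135, minus strand) were called higher and carry a TATA box close to the start. *A730082K24Rik* (chr7:114948400-114948699, plus strand), called higher, and *Dancr* (chr5:74092810-74093109, plus strand), called lower, have none. Capitals mark every match, on either strand, to TATAAA (the TATA box), CCAAT (the NF-Y motif, read as ATTGG on the other strand), GGGCGG (the SP and KLF motif), CCGGAAG (ETS), GGATTA (OBOX), TCAAGGTCA (NR5A2) and to the DUX and ZBTB33 motifs.
C86187: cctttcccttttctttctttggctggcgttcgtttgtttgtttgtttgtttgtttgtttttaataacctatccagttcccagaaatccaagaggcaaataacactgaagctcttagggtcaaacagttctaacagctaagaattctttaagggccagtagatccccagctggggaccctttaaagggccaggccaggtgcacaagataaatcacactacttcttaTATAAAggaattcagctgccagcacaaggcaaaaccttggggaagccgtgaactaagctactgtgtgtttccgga
Arhgap20os: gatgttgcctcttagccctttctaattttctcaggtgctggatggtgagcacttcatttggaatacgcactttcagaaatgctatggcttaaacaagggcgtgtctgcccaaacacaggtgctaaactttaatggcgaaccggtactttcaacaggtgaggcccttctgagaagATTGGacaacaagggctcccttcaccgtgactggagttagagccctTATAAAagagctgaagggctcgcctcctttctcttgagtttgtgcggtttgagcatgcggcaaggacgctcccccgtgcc
A730082K24Rik: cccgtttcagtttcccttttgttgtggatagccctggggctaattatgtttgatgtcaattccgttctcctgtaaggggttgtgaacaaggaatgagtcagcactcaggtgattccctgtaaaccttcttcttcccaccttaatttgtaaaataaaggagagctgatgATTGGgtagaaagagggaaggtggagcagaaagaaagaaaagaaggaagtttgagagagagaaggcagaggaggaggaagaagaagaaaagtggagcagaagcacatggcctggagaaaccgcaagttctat
Dancr: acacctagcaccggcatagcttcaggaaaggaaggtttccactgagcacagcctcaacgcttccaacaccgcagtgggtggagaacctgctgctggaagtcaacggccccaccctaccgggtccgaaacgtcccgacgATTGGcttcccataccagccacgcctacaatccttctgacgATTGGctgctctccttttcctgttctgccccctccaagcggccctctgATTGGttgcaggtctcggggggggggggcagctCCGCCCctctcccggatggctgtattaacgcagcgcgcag
The TATA box began at -25 in *C86187* and -30 in *Arhgap20os*, and *Dancr* had 3 matches to the NF-Y motif, at -112, -71 and -23, and an SP and KLF match at 10.

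Over the 148 members with a window, TATAAA was in 14.2% (13.6% of all windows), CCAAT in 46.6% (37.4%), GGGCGG in 33.1% (35.7%), CCGGAAG in 11.5% (8.86%), GGATTA in 8.11% (7.06%) and the ZBTB33 motif in 1.35% (0.466%). The letters of the DUX motif were in no member's window (0.0335% of all), and those of NR5A2, TCAAGGTCA, in none (0.423% of all). None of these matches overlapped another motif in *C86187*, *Arhgap20os*, *A730082K24Rik* or *Dancr*. A TATAAA that began between -36 and -20, a stretch chosen after the matches were seen, was in 7 of 148 members (4.73%) and 2.30% of all windows, and in 3 of the 30 members called higher that had a window.

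The content of CG pairs in the windows differed between members called higher and lower. The ratio of observed to expected CG pairs had a median of 0.249 in the windows of 30 members called higher, 0.575 in those of 8 called lower, 0.442 in all 148 and 0.384 in all 32851. Of the 72 members with a ratio under 0.4, 22 were called higher and 3 lower, with a median log2 fold change of 0.75. Without control replicate 2 these were 39 higher, 2 lower and a median of 1.162, and without control replicate 1 they were 20 higher, 9 lower and a median of 0.38. Of the 51 with a ratio of at least 0.7, 4 were called higher and 3 lower, with a median of -0.16, which was 0.03 without control replicate 2. The bounds were chosen after the data were seen. Protein-coding genes with at least 10 CPM divided in the same direction: 704 with a ratio under 0.4 had a median log2 fold change of 0.30, with 22.0% called higher and 9.38% lower, and 3730 with at least 0.7 had a median of -0.12, with 9.17% called higher and 12.4% lower. The pattern was therefore shared with protein-coding genes. For those the first listed window of a gene was taken, and for members the window nearest a GENCODE start. Protein-coding genes without a window were left out. LincRNA windows had a median ratio of 0.28, and those of processed transcripts 0.763 and of bidirectional promoter lncRNAs 0.965.

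**Figure D3:**
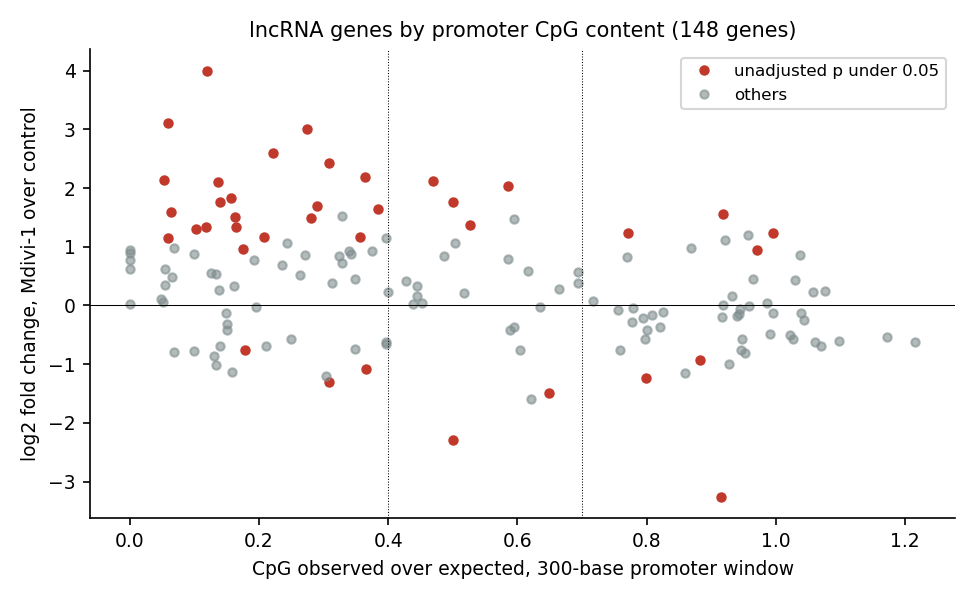
Log2 fold change, Mdivi-1 over control, of the 148 members with a promoter window against the observed over expected ratio of CG pairs in it, with members at an unadjusted p under 0.05 in red. Dotted lines stand at 0.4 and 0.7, and 1 value above 4 is drawn at 4. Of the 72 genes left of 0.4, 22 are called higher and 3 lower.

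Hosts of snoRNAs had mostly negative log2 fold changes, which rested largely on control replicate 2. Of 11 hosts among the members, 9 had a negative log2 fold change, 1 was called lower and 0 higher, with a median of -0.50. Without control replicate 2 the median was 0.06 and 6 of 11 were positive. *Dancr*, a snoRNA host also known for holding back differentiation of progenitor cells, had 32.3 and 45.5 CPM with Mdivi-1 and 76.3 and 143 CPM in controls. It was the host called lower (log2 fold change -1.50 ± 0.40, adjusted p 0.180 in edgeR and 0.0144 in DESeq2). *Snhg15* had 188 and 126 CPM with Mdivi-1 and 189 and 435 CPM in controls, and *Snhg12* 9.93 and 15.9 CPM against 19.1 and 38.4 CPM. *Snhg10* had 17.3 and 17.04 CPM with Mdivi-1 and 25.2 and 24.4 CPM in controls, close within each group and apart between groups, though not called.

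In 4 hosts the sign changed to positive without control replicate 2. *Snhg3* had 41.5 and 42.6 CPM with Mdivi-1 and 39.6 and 79.1 CPM in controls. *Snhg8* had 29.1 and 41.8 CPM with Mdivi-1 and 23.3 and 60.9 CPM in controls. *Zfas1*, which runs antisense from the start of *Znfx1*, had 26.0 and 22.3 CPM with Mdivi-1 and 18.0 and 63.3 CPM in controls. Their log2 fold changes of -0.50, -0.25 and -0.75 were 0.06, 0.58 and 0.40 without that library. *Snhg4* (19.9 and 20.8 CPM with Mdivi-1, 18.1 and 22.3 CPM in controls), *2410006H16Rik* (22.0 and 28.4 CPM with Mdivi-1, 21.5 and 29.3 CPM in controls) and *1110038B12Rik* (11.1 and 10.5 CPM with Mdivi-1, 11.4 and 12.4 CPM in controls) were nearly level, and the sign of *Snhg4* and *2410006H16Rik* changed with the scaling. *2410006H16Rik* was the fourth host whose sign changed without control replicate 2 (log2 fold change -0.01, and 0.20 without it). *Snhg18* was the host with both Mdivi-1 libraries above both controls, at 16.3 and 14.8 CPM with Mdivi-1 and 5.69 and 11.9 CPM in controls.

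**Figure D4:**
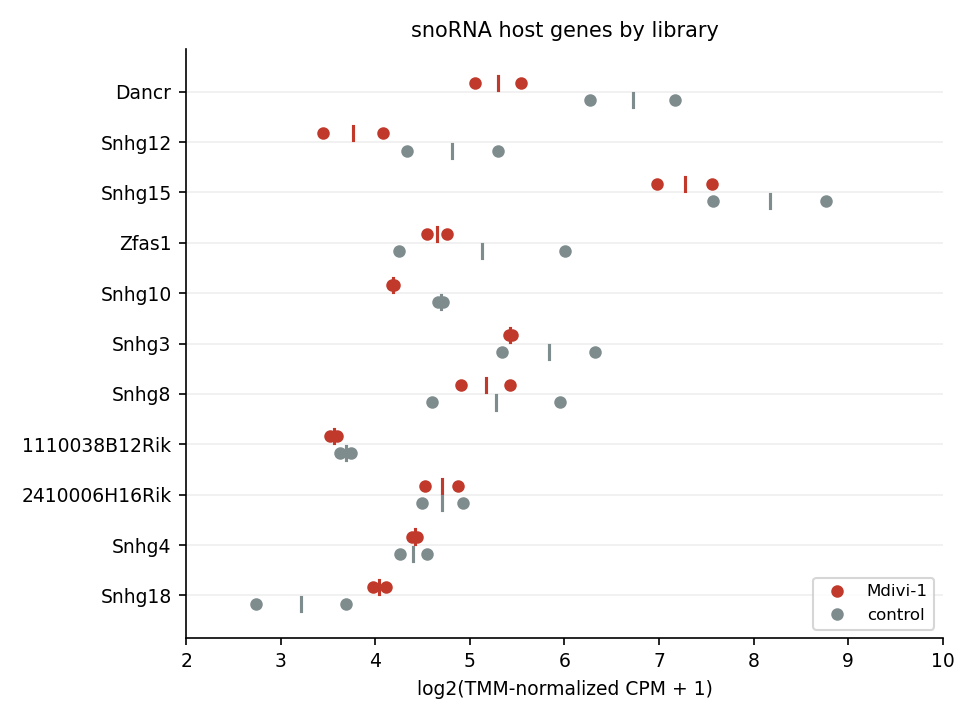
Level in each library, as log2 of TMM-normalized CPM + 1, of the 11 snoRNA host genes, ordered by log2 fold change. Points are libraries, short vertical bars group means, Mdivi-1 in red above control in grey. In *Zfas1*, *Snhg3* and *Snhg8* the Mdivi-1 libraries lie between the 2 controls.

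Many snoRNA hosts start with a run of pyrimidines (a terminal oligopyrimidine start, known from genes for ribosomal proteins), so the 50 bases around the annotated starts of 6 hosts are shown, with the pyrimidine run that begins at the start in capitals. They are *Snhg8* (chr3:123508312-123508361, minus strand), *Snhg12* (chr4:132308653-132308702, plus strand), *Snhg18* (chr15:32244638-32244687, minus strand), *2410006H16Rik* (chr11:62602852-62602901, plus strand), *Snhg10* (chr12:105032255-105032304, minus strand) and *Snhg15* (chr11:6528736-6528785, minus strand).
Snhg8: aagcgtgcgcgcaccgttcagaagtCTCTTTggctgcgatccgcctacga
Snhg12: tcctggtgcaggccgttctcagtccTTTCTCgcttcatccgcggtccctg
Snhg18: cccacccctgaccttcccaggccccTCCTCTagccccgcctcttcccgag
2410006H16Rik: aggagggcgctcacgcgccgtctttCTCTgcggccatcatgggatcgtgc
Snhg10: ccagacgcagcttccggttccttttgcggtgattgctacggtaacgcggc
Snhg15: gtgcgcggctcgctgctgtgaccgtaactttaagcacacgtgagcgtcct
Of the 10 hosts with a window that was read, 4 had a pyrimidine run of any kind at the start and 6 had none. The other 4 without one were *Snhg3*, *Zfas1*, *Dancr* and *1110038B12Rik*. The runs were 6 bases long in *Snhg8*, *Snhg12* and *Snhg18*, 4 in *2410006H16Rik*, and absent at the annotated starts of *Snhg10* and *Snhg15*. A start with C and at least 4 further pyrimidines was found in 7 of 148 members (4.73%) and in 2.51% of all windows. *Snhg8*, whose Mdivi-1 libraries lay between the controls, was alone among these hosts in having such a start. *Arhgap20os*, called higher, had one as well.

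Proteins of the snoRNA particle, which carry out the modification that snoRNAs guide, had negative log2 fold changes in 8 of 8 genes (median -0.68), with 2 called lower and 0 higher. Factors of nonsense-mediated decay, a pathway that degrades many host transcripts, were negative in 8 of 9 tested genes, with 0 called by edgeR and 0 by DESeq2 at its threshold. Of 15 genes of the nuclear exosome and its adaptors, which degrade noncoding RNA in the nucleus, 10 were negative, 4 were called lower and 1 higher. The 5 paraspeckle protein genes and the 7 genes for proteins of X inactivation had 0 called by edgeR in either direction and 0 by DESeq2. Negative log2 fold changes were found in 2 of the 5 and in 7 of the 7 (median -0.30), so that uniform sign was not particular to the snoRNA particle. Of all protein-coding genes with at least 10 CPM, 46.0% had a positive log2 fold change, 11.2% were called higher and 12.8% lower. Values with a library left out were not summarized for these lists.

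Of the widely studied lncRNAs, few were members. *Malat1*, an abundant RNA of nuclear speckles in somatic cells, had 28.8 and 55.6 CPM with Mdivi-1 and 80.8 and 61.6 CPM in controls. *Oip5os1*, also called Cyrano, which promotes destruction of a microRNA, had 43.6 and 37.7 CPM with Mdivi-1 and 52.0 and 56.4 CPM in controls. In both, each Mdivi-1 library lay below each control and neither gene was called (log2 fold changes -0.76 ± 0.40 and -0.42 ± 0.32). *Platr14*, a transcript named for its link to pluripotency, had 119 and 79.5 CPM with Mdivi-1 and 61.9 and 77.4 CPM in controls (0.51 ± 0.33). *Platr30*, which has near-identical copies over its whole length, had 88.7 and 64.4 CPM with Mdivi-1 and 37.0 and 68.0 CPM in controls. *Xist*, the RNA that coats the inactive X chromosome, and its antisense partner *Tsix* were under the limit, at 4.19 and 4.21 raw CPM on average, as were *Neat1* (0.906 CPM) and the imprinted *Airn* (3.65 CPM).

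Reads without strand cannot divide overlapping genes, and 63 members shared exonic bases with a protein-coding gene, so each member was set beside the protein-coding gene it overlapped or, failing that, its nearest one. Among 53 opposite-strand pairs whose lncRNA shared exonic bases with any protein-coding gene, 43 had log2 fold changes of the same sign. The rank correlation was 0.70 and Pearson's r 0.42 across pairs, which share the 4 libraries. Shared bases were counted over protein-coding genes of either strand, not for the partner alone. Among 15 opposite-strand pairs without shared exonic bases the sign was the same in 8, among 19 pairs with back-to-back starts in 9, and among 76 pairs with no overlap in 40. The difference between these kinds of pair was not tested. Where exonic bases are shared, reads from them cannot be assigned to a single gene.

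Several antisense members had differences of the same sign as their partners. *Arhgap20os* shared 6.12% of its exonic bases with other genes, and *Arhgap20* had 68.2 and 69.5 CPM with Mdivi-1 and 18.7 and 21.5 CPM in controls. *BB031773* had 151 and 157 CPM with Mdivi-1 and 55.7 and 81.0 CPM in controls, and *Dynlt5*, a dynein light chain gene, 203 and 196 CPM against 68.4 and 98.8 CPM. Of the exonic bases of *BB031773*, 39.8% were shared with protein-coding genes. *Chn1os3* had 25.1 and 26.5 CPM with Mdivi-1 and 11.6 and 11.4 CPM in controls, and *Chn1*, for a GTPase-activating protein of Rac, 129 and 124 CPM against 56.6 and 58.1 CPM. Lower pairs were the antisense gene *Trmt61b* (44.5 and 29.6 CPM with Mdivi-1, 59.8 and 81.0 CPM in controls) with *Spdya*, which activates cyclin-dependent kinases (9.66 and 10.7 CPM with Mdivi-1, 23.5 and 30.2 CPM in controls), and *C920021L13Rik* (20.4 and 26.9 CPM with Mdivi-1, 38.4 and 52.8 CPM in controls) with *BC028528* (34.3 and 39.5 CPM with Mdivi-1, 62.7 and 95.6 CPM in controls).

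Some lncRNA genes and their partners differed in opposite directions. *E330011O21Rik* had 58.1 and 56.8 CPM with Mdivi-1 and 10.8 and 21.1 CPM in controls (log2 fold change 1.85 ± 0.43), and shares no exonic bases with *Cxadr*. *Cxadr*, for a cell junction protein on the other strand, had 15.8 and 32.5 CPM with Mdivi-1 and 56.0 and 56.7 CPM in controls. *Dancr* and its nearest gene *Usp46*, for a deubiquitinating enzyme 24629 bases away, also differed in sign, with *Usp46* at 79.0 and 110 CPM with Mdivi-1 and 44.1 and 41.5 CPM in controls. *1700034H15Rik*, called lower, shares 7.67% of its exonic bases with protein-coding genes, and *Slc30a1* had 117 and 110 CPM with Mdivi-1 and 79.6 and 77.2 CPM in controls.

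**Figure D5:**
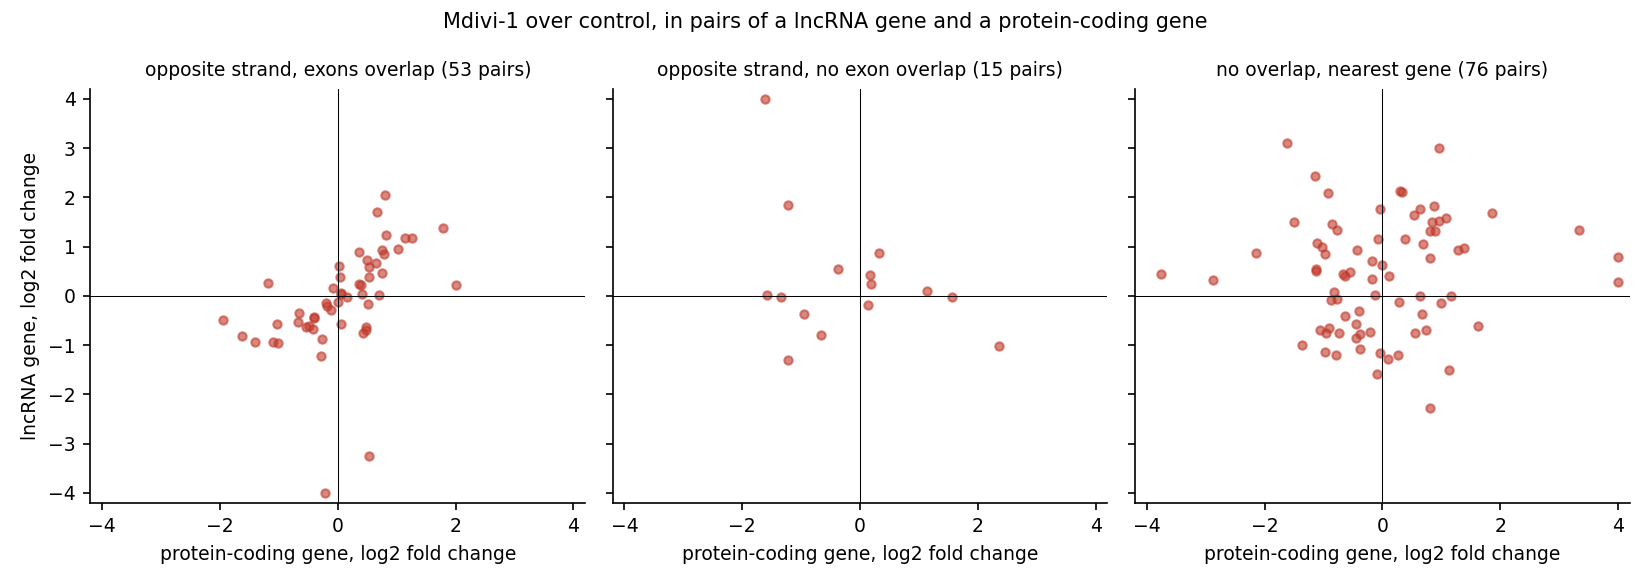
Log2 fold change, Mdivi-1 over control, of each lncRNA gene (vertical axis) against that of its protein-coding partner (horizontal axis), for opposite-strand pairs with shared exonic bases (left), without them (middle) and for pairs with no overlap (right). Shared bases are those with any protein-coding gene, not with the partner alone. Values past 4 are drawn at 4 or -4. Signs are the same in 43 of 53, 8 of 15 and 40 of 76 pairs.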

How the data were processed

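RNA-seq of 4 pooled-embryo libraries (2 Mdivi-1, 2 control) was analysed. Per the methods, the authors trimmed reads with cutadapt 1.16 (quality 20, minimum length 20), mapped them with STAR at default settings and made the deposited raw counts with its GeneCounts setting in GENCODE exons. The submitters' notes name mm10. The deposited signal values are the authors' counts after scaling by 1 size factor for each library. The authors' log2 fold changes, Wald score and p-values from DESeq2 are in the table as well. None of these was used. Of 26022 genes, 25995 were found in GENCODE M21 by Ensembl ID, and 614 of these had the same start and end as in the table, so coordinates are those of M21 on GRCm38.

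Genes were kept by filterByExpr (minimum count 10), scaled by TMM (factors 1.05 and 1.04 for Mdivi-1, 1.10 and 0.834 for control) and tested two-sided by the quasi-likelihood method of edgeR 4.0.16 (R 4.3.3). Benjamini-Hochberg adjustment ran over all 14259 genes. Standard errors were worked back from this test. The biological coefficient of variation was 0.66. All 187 members passed the filter. DESeq2 1.42.0, limma-voom 3.58.1, the likelihood ratio test, other scalings and filters, a replicate block and each library left out were alternatives. Tests were tested on simulated data. Near-identical copies and promoter similarity were found with BLAST 2.17.0 (E-value 1e-05 for promoters). Named members are the 10 with the highest mean CPM, up to 10 in each direction with the smallest p among members whose groups did not overlap, and members of fixed lists; others were chosen after their values were seen. The members and lists were chosen with earlier results of these data known.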

Additional observations from a re-analysis of the deposited data

How the results depend on the processing

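With 2 libraries a group, the number of members past an adjusted p of 0.05 depended on the test. It was 0 in the quasi-likelihood test (49 at an unadjusted p under 0.05), 32 without a low-count filter (27 higher, 5 lower), 27 in DESeq2 (23 higher, 4 lower), 27 in the likelihood ratio test (23 higher, 4 lower) and 13 in limma-voom (11 higher, 2 lower). Leaving out each library gave 0 to 21, with 19 when control replicate 1 was left out, 21 when control replicate 2 was and 1 when Mdivi-1 replicate 2 was. DESeq2 with a library left out, added after seeing the data, gave 8 to 33 (27 and 33 without control replicate 1 or 2, 8 and 9 without Mdivi-1 replicate 1 or 2). A group left with 1 library is assumed to vary like the other. Members called lower numbered 6 under library totals, 20 without the filter and 8 to 25 with a library left out (25 without control replicate 1). Members called higher numbered 28 to 63 with a library left out (63 without control replicate 2), and the median log2 fold change 0.139 to 0.596 (0.596 without control replicate 2). Over all genes tested, the median was 0.206 without control replicate 1 and 0.084 without control replicate 2. The difference in share was 0.278 to 0.454 points with a library left out. The causes were not tested. Single members changed sign as follows. With a library left out, log2 fold changes ran from -1.041 to 0.251 for *Gt(ROSA)26Sor*, -0.92 to 0.062 for *Snhg3*, -0.788 to 0.581 for *Snhg8*, -1.399 to 0.4 for *Zfas1* and -1.095 to 0.796 for *Platr9*, the lowest without control replicate 1 and the highest without control replicate 2. *2410006H16Rik* was at 0.132 under library totals, 0.019 in limma-voom and -0.229 to 0.203 with a library left out. *Snhg4* was at -0.004 under DESeq2 size factors, a filter of 1 CPM and DESeq2, and -0.14 to 0.143 with a library left out. Of 492 values of 41 named members under 12 alternatives each, 14 changed sign, and of 240 values of the 20 named by the smallest p, 0 did.

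With the replicate number as a block, 42 members were called higher, 10 lower and 0 at an adjusted p, with a median log2 fold change of 0.248. The numbers did not pair the libraries: the correlation across 14259 genes of the replicate differences in the 2 groups was 0.001. Low-count members such as *E230016K23Rik* in controls are limited by depth.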
